A study of Rattus norvegicus with 8 samples.

Results

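Fibroblasts of the meninges and of the sheaths around larger blood vessels make most of the fibrillar matrix found in the brain. The 10 genes described here encode parts of that matrix or mark the cells that make it: the fibrillar collagen chains Col1a1, Col1a2, Col3a1 and Col5a2, the small leucine-rich proteoglycans Bgn, Dcn, Lum and Fmod, the matrix glycoprotein Fn1, and Aldh1a2, an enzyme that makes retinoic acid. They were taken by gene name from the probes of a custom rat expression array, which holds 12549 genes and unnamed probes, and they account for 16 of its 15207 probes that are not controls. The genes were chosen by their measured levels on these arrays, because most of them were higher in PNFLX and highest on the array of PNFLX replicate 1. The values that compare PNFLX with control are therefore given as a description of these 8 arrays, with no test.

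The arrays measured total RNA of whole hippocampi from rats aged 2 months. The 4 control samples came from rats given vehicle, 5% sucrose, as pups, and the 4 PNFLX samples came from rats given fluoxetine at 10 mg/kg, a selective serotonin reuptake inhibitor, from postnatal day 2 to postnatal day 21 by the treatment protocol. The descriptions of single samples name end days from 21 to 28, a different one for each sample, and the day of the protocol is used here. Strain, sex, the route of dosing and whether the meninges were stripped are not given in the sources used here. Nothing in the labels states that the 4 samples of a group came from separate animals, so the spread between them may be partly technical. Because whole tissue was measured, fewer cells of a type and less RNA per cell cannot be told apart.

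All 8 arrays lay on 1 slide, the controls in its first row of arrays and the PNFLX samples in its second, so that slide row and treatment cannot be told apart. Between 70.5% and 77.9% of the probes were well above background on an array. Levels are given as log2 signal relative to the 75th percentile of the same array, so that a value of 0 is the level of that percentile and a step of 1 is a doubling. The number of arrays limits the precision of every value. As a check of the tissue, 9 neuron, 9 astrocyte and 10 oligodendrocyte markers were well above background on all arrays. These are the markers that passed a filter asking for that on at least 4 arrays. The astrocyte marker S100b did not pass it, and the neuron marker Rbfox3 had no probe matched by name.

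In healthy tissue, chains of type I collagen (Col1a1 with Col1a2) and of type III collagen (Col3a1) are secreted as procollagens, trimmed at both ends and assembled into fibrils, and type V collagen, to which Col5a2 contributes a chain, sits inside those fibrils and limits their width. The small leucine-rich proteoglycans coat the fibrils and govern their spacing. In the brain such fibrils are largely confined to the meninges and the vessel wall, and retinoic acid made by meningeal fibroblasts acts on the developing cortex.

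Several of the probes read related stretches of sequence, and these are shown because the probes then gave different patterns across the arrays. Each probe is 60 bases long. Capitals mark runs of at least 8 bases that a probe shares with a probe of another gene in the same set.
Col1a1 row 101: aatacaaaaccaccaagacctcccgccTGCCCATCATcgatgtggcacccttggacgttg
Col1a1 row 188: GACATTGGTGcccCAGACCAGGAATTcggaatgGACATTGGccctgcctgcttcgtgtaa
Col3a1 row 117: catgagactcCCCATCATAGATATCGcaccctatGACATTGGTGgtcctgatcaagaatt
Col5a2 row 191: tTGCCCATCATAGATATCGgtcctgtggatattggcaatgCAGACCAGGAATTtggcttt
Dcn rows 48 and 177: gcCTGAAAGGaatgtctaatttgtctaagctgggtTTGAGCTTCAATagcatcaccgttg
Lum row 188: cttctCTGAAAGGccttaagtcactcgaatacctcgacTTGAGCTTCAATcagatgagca
The row after each name is the row of spots on the array, of 192, that holds the probe. The longest shared run was 16 bases, between the Col3a1 probe and the Col5a2 probe of row 191, which matched at 37 of 53 bases when aligned without gaps. The Dcn and Lum probes shared a run of 12 bases and matched at 30 of 57. The 2 Col1a1 probes had no run longer than 6 bases in common. How far a probe bound the RNA of the related gene was not tested.

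On the rn4 assembly, which the array files use, the Col1a1 probes lie at chr10:83652273-83652332 and chr10:83652326-83652385, and the Col1a2 probes at chr4:29466649-29466708 and chr4:29463744-29463803. Col3a1 was read at chr9:44318879-44318938, and Col5a2 at chr9:44376974-44377033 and chr9:44376914-44376973. The nearest probes of Col3a1 and Col5a2 are 58 kb apart, and those of Dcn and Lum on chromosome 7 are 45.3 kb apart, so that the 10 genes include 2 pairs of neighbours. The Dcn probe spans chr7:35057602-35061403, which is 3802 bases for a probe of 60 bases, so its sequence is split in the genome. Lum was read at chr7:35106680-35106739, Bgn at chrX:159466782-159466841, Fmod at chr13:47012306-47012365, Fn1 at chr9:70849298-70849357 and Aldh1a2 at chr8:75790115-75790174. No annotation of rn4 was used here, so exons and untranslated regions were not assigned.

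All 10 genes passed the filter on dim probes, and 15 of the 16 spots were well above background on all 8 arrays, the exception being Lum on 7. None of the 128 member values was saturated and 3 carried an outlier flag of the scanner software, all of them for Fmod. Where a gene had more than 1 spot, the brighter one stands for the gene. By that choice 9 of 10 genes had a higher mean in PNFLX, against 45.5% of the 9440 genes and unnamed probes measured. Of the 10, 7 had their highest value on PNFLX 1, against 13.3% of all, 2 on PNFLX 4, against 21.9%, and 1 on PNFLX 2, against 3.26%. These counts follow from how the genes were chosen. The groups did not overlap for 1 of the 10 genes, with Bgn higher in PNFLX, against 4.46% of all, and for none with PNFLX lower, against 6.57%.

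**Figure D1:**
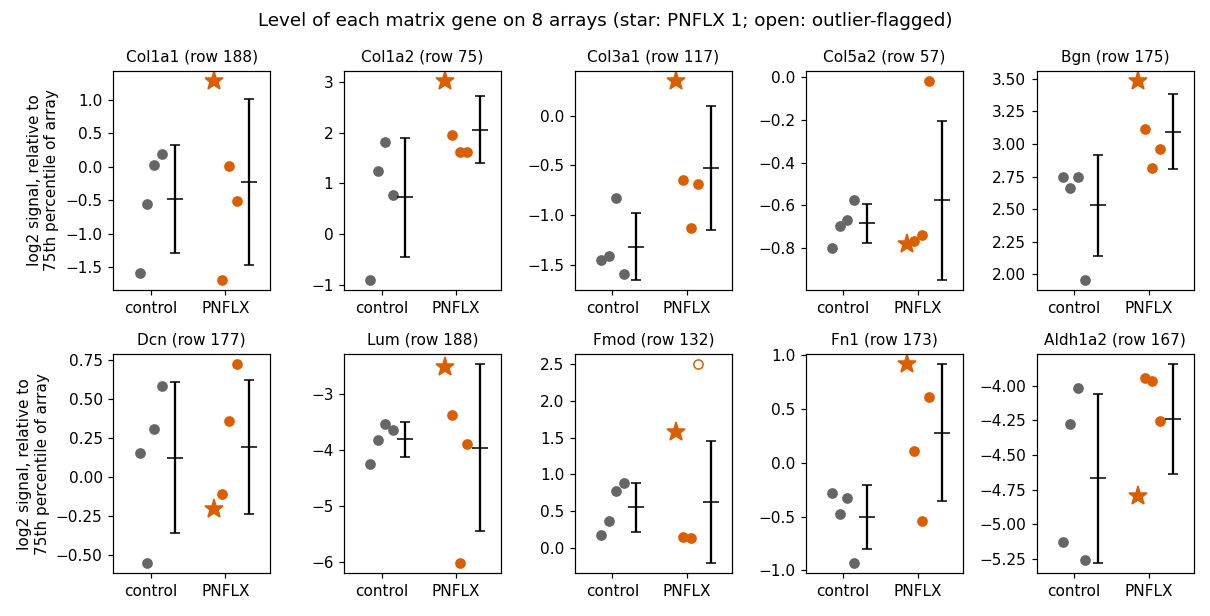
Level of each of the 10 matrix genes on the 8 arrays, in log2 signal relative to the 75th percentile of the array (vertical axis, its range set for each gene), for control (grey) and PNFLX (orange), with PNFLX 1 as a star. Horizontal bars and whiskers give mean and SD without flagged values, and the open circle is a flagged Fmod value. PNFLX 1 is the highest unflagged array for 7 genes and lies within or below the other arrays for Col5a2, Dcn and Aldh1a2.

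Among the brighter spots of the 4 collagen chains, that of Col1a2 had the largest difference. The brighter Col1a2 spot read -0.90, 1.25, 1.81 and 0.77 in controls 1 to 4 and 3.02, 1.96, 1.62 and 1.62 in PNFLX 1 to 4. PNFLX 1 was the highest array and control 1 the lowest by a wide margin, and control 3 lay above PNFLX 3 and 4. Control averaged 0.73 ± 1.17 (SD, n = 4) against 2.05 ± 0.66 (SD, n = 4) for PNFLX, a log2 difference of 1.32 or 2.50-fold, and 1.00 without PNFLX 1. The control SD of this spot was larger than that of 96.9% of all genes.

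The dimmer Col1a2 spot, whose probe lies at lower rn4 coordinates, did not show that difference. It read -2.02, -1.39, -1.19 and -2.15 in controls and -0.98, -1.52, -1.75 and -2.38 in PNFLX. PNFLX 1 was again the highest array, and PNFLX 4 was the lowest. The log2 difference was 0.027, and -0.20 without PNFLX 1.

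Col3a1, the chain of type III collagen, had 1 spot. It read -1.44, -1.40, -0.82 and -1.59 in controls and 0.35, -0.64, -1.12 and -0.69 in PNFLX. PNFLX 1, 2 and 4 lay above every control, and PNFLX 3 lay below control 3. Control averaged -1.31 ± 0.34 (SD, n = 4) against -0.53 ± 0.62 (SD, n = 4) for PNFLX, a log2 difference of 0.79 or 1.73-fold, and 0.50 without PNFLX 1.

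Col1a1, the other chain of type I collagen, differed between its spots. The brighter spot read -1.58, -0.55, 0.025 and 0.20 in controls and 1.28, -1.69, 0.0082 and -0.51 in PNFLX. PNFLX 1 was highest, 3.45-fold above the median of the other arrays, while PNFLX 2 was the lowest of all 8. PNFLX minus control came to 0.25 on the log2 scale with PNFLX 1 and to -0.25 without it, beside SDs of 0.80 in control and 1.23 in PNFLX.

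The other Col1a1 spot read -0.31, -0.60, -0.21 and -0.61 in controls and -0.23, -0.70, -0.42 and -1.16 in PNFLX. Control 3 was highest and PNFLX 4 lowest, and PNFLX 1 stood within the range of the controls. Its log2 difference was -0.20, and -0.33 without PNFLX 1. The high value of PNFLX 1 for this gene was thus seen at 1 of its 2 probes. Their positions on chromosome 10 overlap at the ends, although their printed bases there are not all the same.

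Col5a2, the type V chain, also gave unlike values at its spots. The brighter spot read -0.80, -0.70, -0.67 and -0.58 in controls and -0.78, -0.77, -0.74 and -0.015 in PNFLX. Only PNFLX 4 stood apart, above all others, and the log2 difference of 0.11 rested on it. The control SD of 0.093 was larger than that of 10.9% of genes.

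The other Col5a2 spot, in row 191 of 192, read -0.85, -1.08, -1.08 and -1.44 in controls and -2.89, -3.92, -1.80 and -3.20 in PNFLX. All 4 PNFLX values lay below all 4 controls, the opposite of the pattern that led to the choice of these genes. That is a log2 difference of -1.84, or 3.58-fold lower. The median difference of all probes in that row of spots was -1.16, and with the medians of rows and columns subtracted the difference of this spot was -0.63. The part of the position on the array in this value was not tested further.

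**Figure D2:**
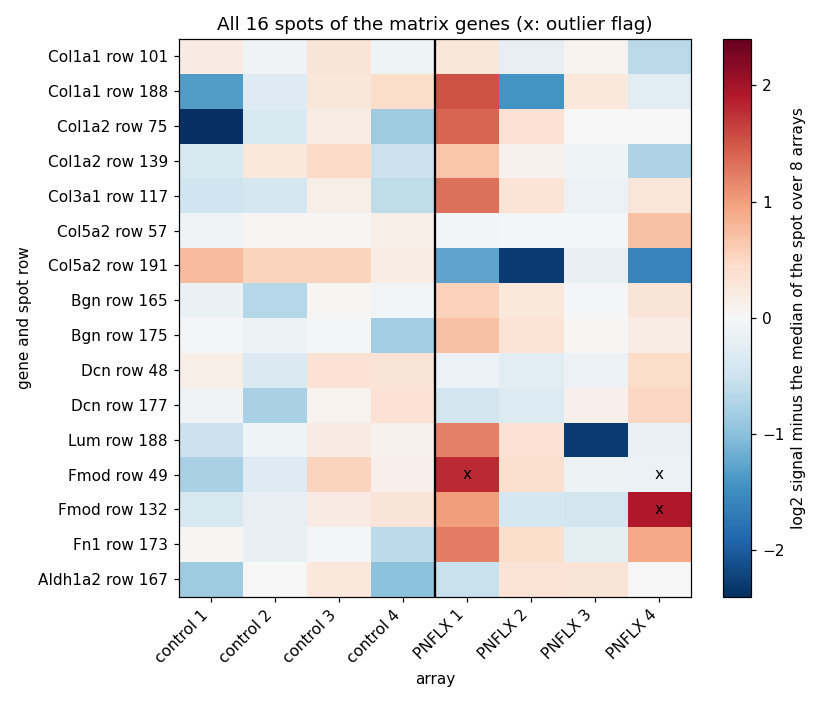
Each of the 16 spots (rows, named by gene and spot row) on each of the 8 arrays (columns, controls left of the line), coloured by log2 signal minus the median of the spot over the 8 arrays, with an x for a flagged value. Red is seen for most spots in the column of PNFLX 1, blue in the PNFLX columns of Col5a2 row 191. Values past an end of the colour scale take the colour of that end.

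Among the proteoglycans, Bgn was read at 2 spots of the same sequence. In row 175 it read 2.75, 2.66, 2.75 and 1.95 in controls and 3.49, 3.12, 2.81 and 2.96 in PNFLX. Every PNFLX array lay above every control, with PNFLX 1 highest and control 4 lowest. Control averaged 2.53 ± 0.38 (SD, n = 4) against 3.09 ± 0.29 (SD, n = 4) for PNFLX, a log2 difference of 0.57 or 1.48-fold, and 0.44 without PNFLX 1.

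In row 165 the same Bgn sequence read 2.56, 2.05, 2.75 and 2.66 in controls and 3.28, 2.99, 2.70 and 3.03 in PNFLX. Here control 2 was the lowest array in place of control 4, and control 3 lay just above PNFLX 3, so that the groups overlapped. Its log2 difference was 0.49 before and 0.05 after the medians of rows and columns were subtracted. In row 175 the same subtraction gave 0.63.

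Dcn, decorin, was also read at 2 spots of the same sequence. In row 177 it read 0.16, -0.55, 0.31 and 0.58 in controls and -0.20, -0.11, 0.36 and 0.72 in PNFLX. In row 48 it read 0.19, -0.29, 0.40 and 0.37 in controls and -0.09, -0.21, -0.08 and 0.49 in PNFLX. In both rows PNFLX 4 was highest, control 2 was lowest and PNFLX 1 lay in the lower part of the range. The log2 difference was 0.07 in row 177 and -0.14 in row 48, both smaller than the SDs of 0.31 to 0.48 within groups.

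Lum, lumican, whose gene neighbours Dcn, read -4.25, -3.83, -3.53 and -3.64 in controls and -2.52, -3.38, -6.03 and -3.90 in PNFLX. The highest array was PNFLX 1 and the lowest PNFLX 3, so that both extremes were in the treated group. The PNFLX SD of 1.49 was larger than that of 97.4% of genes. The log2 difference was -0.15, the only one below 0 among the 10 genes, and -0.63 without PNFLX 1.

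Fmod, fibromodulin, carried the flagged values. In row 132 it read 0.18, 0.37, 0.78 and 0.89 in controls and 1.58, 0.15 and 0.14 in PNFLX 1 to 3, and the flagged value of PNFLX 4 was 2.50. Without that value PNFLX 1 was highest, and PNFLX 2 and 3 were the lowest arrays. The log2 difference was 0.07 over 3 PNFLX arrays, 0.54 with the flagged value kept and -0.41 without PNFLX 1.

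In row 49 the same Fmod sequence read -0.92, -0.46, 0.39 and -0.03 in controls and 0.24 and -0.27 in PNFLX 2 and 3. The flagged values were 1.63 in PNFLX 1 and -0.29 in PNFLX 4. The high value of PNFLX 4 in row 132 was therefore not seen in row 49, and that of PNFLX 1 was seen in both, though flagged here. The log2 difference in row 49 was 0.24 over 2 PNFLX arrays.

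**Figure D3:**
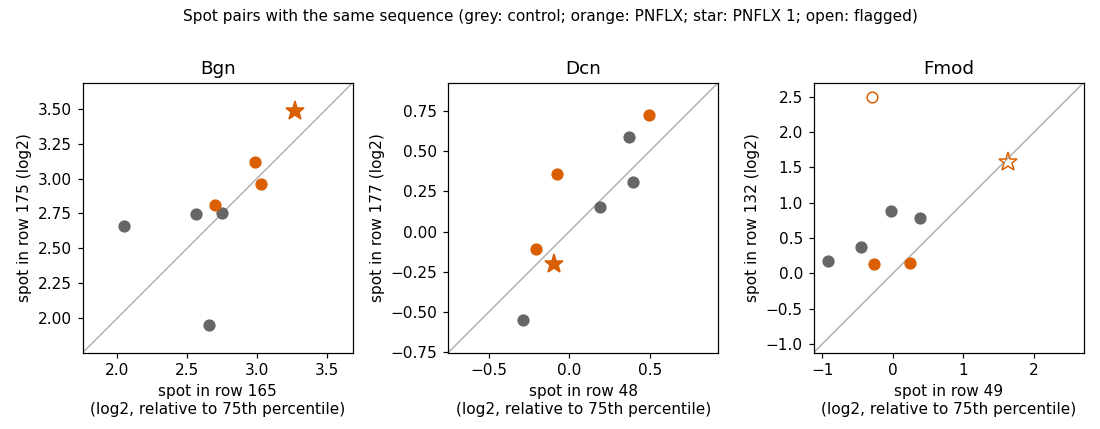
Levels at paired spots that carry the same sequence, for Bgn, Dcn and Fmod, each axis giving log2 signal relative to the 75th percentile of the array and the line marking equal values. Points are the 8 arrays (grey control, orange PNFLX, star PNFLX 1, open symbols outlier-flagged at either spot), and the PNFLX 4 point of Fmod is the farthest from its line.

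Over the array, 1488 pairs of spots shared a sequence, and their values on the same array differed by a median of 0.17 on the log2 scale, with 95% of the differences under 1.37. The median for Bgn was 0.16, with a largest difference of 0.70, and that for Dcn was 0.16, with a largest of 0.44. For Fmod the median was 0.62 over its unflagged values. PNFLX minus control was smaller in size than these medians for Dcn (0.07 and -0.14) and Fmod (0.07 and 0.24). For Bgn (0.57 and 0.49) it lay between the median and the largest difference. The 2 measures are unlike, since a steady gap between 2 spots does not enter a difference of group means. Such a gap was seen for Fmod, where row 132 read above row 49 on every control array.

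Fn1, fibronectin, a glycoprotein to which cells and collagens bind, read -0.28, -0.48, -0.33 and -0.94 in controls and 0.92, 0.11, -0.54 and 0.62 in PNFLX. PNFLX 1, 2 and 4 lay above every control, and PNFLX 3 lay below all but control 4. Control averaged -0.50 ± 0.30 (SD, n = 4) against 0.28 ± 0.64 (SD, n = 4) for PNFLX, a log2 difference of 0.78 or 1.72-fold, and 0.57 without PNFLX 1. Fn1 and Col3a1 thus shared the feature that PNFLX 3 alone of its group lay among the controls.

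Aldh1a2, which makes retinoic acid and is known from the meninges, read -5.13, -4.28, -4.02 and -5.26 in controls and -4.79, -3.94, -3.96 and -4.26 in PNFLX. PNFLX 2 and 3 were highest, controls 1 and 4 lowest, and PNFLX 1 lay below all but those controls. The log2 difference was 0.43, or 1.35-fold, and 0.62 without PNFLX 1, so that leaving out that array raised it. With normexp background correction of this dim spot the difference turned to -0.78.

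**Figure D4:**
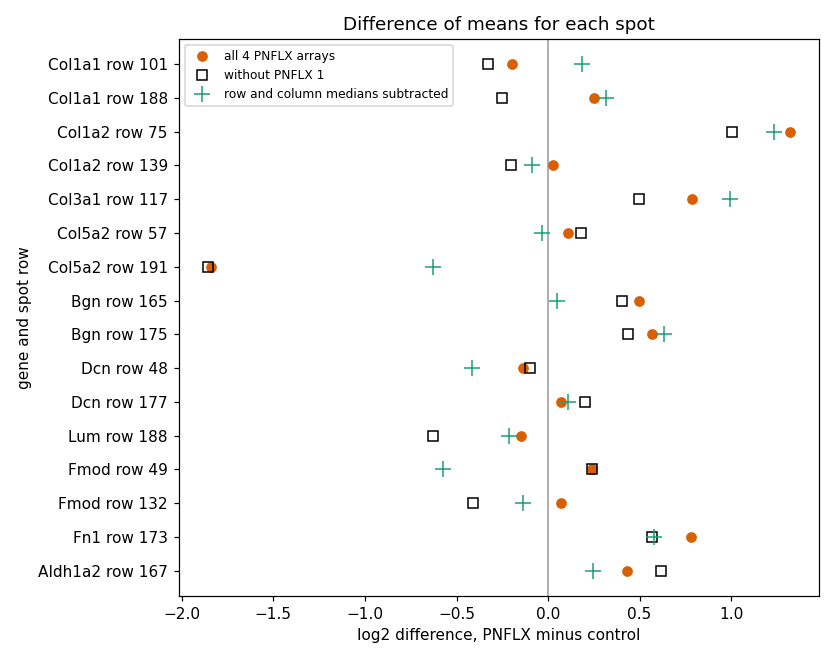
Log2 difference, PNFLX minus control, of each of the 16 spots (vertical axis) with all 4 PNFLX arrays (circles), without PNFLX 1 (squares) and with the medians of spot rows and columns subtracted (crosses). With all arrays 12 of 16 spots lie above 0, and without PNFLX 1 there are 9. Col5a2 row 191 lies farthest below 0 in all 3 forms.

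Across the 16 spots, 12 had a higher mean in PNFLX with all arrays and 9 without PNFLX 1. Over the 10 genes the counts were 9 and 7, the latter against 47.1% of all genes, and the median difference was 0.34 with all arrays and 0.32 without PNFLX 1, beside -0.04 and -0.03 over all genes. Without PNFLX 1 the genes with a mean below that of control were Col1a1, Lum and Fmod. Seen by array, the mean of the 10 genes after centring each on its own mean was -0.59, -0.21, 0.17 and -0.22 in controls 1 to 4. In PNFLX 1 to 4 it was 0.77, 0.02, -0.20 and 0.28, the last of these without the flagged Fmod value. PNFLX 1 was highest and control 1 lowest, and PNFLX 2 and 3 lay within the range of the controls.

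The 10 genes followed each other across the 8 arrays to unequal degrees. These correlations describe 8 arrays of 1 slide that share their scaling, and PNFLX 1 was the highest array for most genes. Col3a1 had the highest correlation with the mean of the other 9 genes (Pearson r = 0.90), followed by Col1a2 (0.79), Fmod (0.75, over 7 arrays) and Fn1 (0.72). Without PNFLX 1, over 7 arrays, Col3a1 gave 0.76, Col1a2 0.66 and Fn1 0.44, and Fmod gave 0.25 over 6 arrays. Bgn moved from 0.58 to 0.23, Col1a1 from 0.48 to 0.03 and Lum from 0.39 to 0.01. In the other direction, Col5a2 moved from 0.17 to 0.58, Aldh1a2 from 0.08 to 0.49 and Dcn from -0.17 to 0.17.

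Of 8620 other genes, the 8 with a symbol whose pattern was most like the mean of the matrix genes over the 8 arrays were Prrx2, Serping1, Gng11, Htatip2, Gls2, Omd, Inhba and Ogn, with Pearson r from 0.91 to 0.97. All 8 were highest on PNFLX 1, which follows from choosing them by their likeness to a mean that is highest there. Prrx2, a homeobox gene of mesenchymal cells, read -3.78, -3.15, -2.87 and -3.47 in controls and -1.49, -2.86, -3.18 and -2.74 in PNFLX. Ogn, osteoglycin, a leucine-rich proteoglycan of the same family as Dcn and Lum, read -0.95, -0.39, 0.28 and -0.39 in controls and 1.59, 0.17, -0.34 and -0.30 in PNFLX. The lowest correlations were those of Chia (-0.97), Casq2 (-0.95) and Bcl2l12 (-0.93).

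The rest of the pathway was read from lists of other genes. Of 9440 genes and unnamed probes tested, 48 passed an adjusted p of 0.05 in limma, or 0.508%. Of 265 genes of the 17 lists that could be measured, 1 passed, or 0.377%, and 25 had an unadjusted p under 0.05, against 12.8% of all genes tested. The gene that passed was Emcn, a sialomucin of the endothelium, with a log2 difference of 2.30 (SE 0.33, limma adjusted p = 0.0316). Emcn read -5.34, -5.40, -4.96 and -4.74 in controls and -3.64, -2.15, -2.39 and -3.09 in PNFLX, at a spot in the first row that was well above background on 5 arrays. The call was lost in 12 alternative settings, among them 7 of the 8 that left out 1 array, all but PNFLX 1 (limma adjusted p = 0.0507 to 0.0983). The difference was 1.26 with row and column medians subtracted (adjusted p = 0.375) and 0.17 with normexp background correction (adjusted p = 0.880).

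None of the genes in the other matrix lists passed in limma. Of those named below, Lox and Cyp26a1 were well above background on 5 arrays, Adamts5, Efemp1 and Smad2 on 6, and Chad and Id1 on 7. The directions of the list genes depended on background correction and scaling. Normexp correction moved the median of all genes to -0.39, and 18 named list genes turned sign with it. Without scaling the median of all genes was 0.26 and 4 turned. Among other collagens, 11 of 19 were higher and 8 lower in PNFLX, with a median of 0.03 and 1 at an unadjusted p under 0.05. That gene was Col4a1, a chain of the basement membrane collagen, which read -0.08, 1.53, 1.42 and 1.56 in controls and 1.92, 2.58, 2.28 and 2.99 in PNFLX. Its PNFLX values all lay above its controls, with control 1 far below the rest, and the log2 difference was 1.33 (SE 0.40, limma adjusted p = 0.220). Of these 19 collagens, 3 were highest on PNFLX 1, against 13.3% of all genes.

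Among the other proteoglycans, 7 of 18 were higher and 11 lower, with a median of -0.05 and 4 at an unadjusted p under 0.05. Ogn differed by 0.64 (SE 0.45, limma adjusted p = 0.574) and by 0.20 without PNFLX 1. Omd, osteomodulin, differed by 0.39 (SE 0.30, limma adjusted p = 0.603) and by 0.10 without PNFLX 1. Prelp, another relative, differed by -0.03 (SE 0.17, limma adjusted p = 0.948). Srgn, the proteoglycan of secretory granules, had a log2 difference of 0.44 (SE 0.12, limma adjusted p = 0.191) that was 0.44 without PNFLX 1. Chad, chondroadherin, had a difference of -0.51 (SE 0.14, limma adjusted p = 0.187).

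Among matrix glycoproteins other than Fn1, 19 of 29 were higher and 10 lower, with a median of 0.11 and 1 at an unadjusted p under 0.05. Without PNFLX 1 the median was 0.01, with 16 higher and 13 lower. Ltbp1, which holds latent TGF-beta in the matrix, had a difference of 0.72 (SE 0.21, limma adjusted p = 0.216), and Fbn1, fibrillin, one of 0.38 (SE 0.24, limma adjusted p = 0.543). Efemp1, a fibulin of elastic fibres, had a difference of 0.98 (SE 0.51, limma adjusted p = 0.467) that was 1.34 without PNFLX 1, its lowest PNFLX array. With normexp correction Ltbp1 turned to -0.26 and Efemp1 to -0.81. In that setting 8 of the 29 were higher, and 10 lay above the median of all genes, against 20 in the main setting. PNFLX 1 was the highest array for 10 of the 29, against 13.3% of all genes.

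For the enzymes that trim, modify and cross-link collagen, 8 of 17 were higher and 9 lower, and 2 had an unadjusted p under 0.05. Bmp1, which removes the end of procollagen chains, read 1.70, 1.54, 1.40 and 1.27 in controls and 2.60, 2.09, 1.74 and 2.08 in PNFLX. All PNFLX values lay above all controls, with PNFLX 1 highest, and the difference was 0.65 (SE 0.20, limma adjusted p = 0.230). The cross-linking enzymes Loxl2 and Lox differed by 0.92 (SE 0.37, limma adjusted p = 0.348) and 1.01 (SE 0.49, limma adjusted p = 0.435), and turned to -0.33 and -0.78 with normexp correction.

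Of 17 genes of matrix breakdown, 7 were higher and 10 lower, and 3 had an unadjusted p under 0.05. They were the protease Adamts5 (1.06, SE 0.31, limma adjusted p = 0.216), the plasminogen activator Plat (0.52, SE 0.16, limma adjusted p = 0.220) and the collagen-degrading cathepsin Ctsk (0.34, SE 0.13, limma adjusted p = 0.336). With normexp correction Adamts5 turned to -0.76 and Plat to -0.49. Of 15 matrix receptors, 3 were higher and 12 lower, with a median of -0.17 and 2 at an unadjusted p under 0.05. Without scaling 10 of the 15 were higher, but 5 lay above the median of all genes, as in the main setting. The collagen receptor Ddr2 had a difference of -0.49 (SE 0.17, limma adjusted p = 0.296).

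In the TGF-beta pathway, which drives collagen genes in fibroblasts, 13 of 29 genes were higher and 16 lower, with a median of -0.01 and 3 at an unadjusted p under 0.05. The signal carrier Smad2 had a difference of 1.40 (SE 0.45, limma adjusted p = 0.245) at a spot in row 4, which was 0.62 with row and column medians subtracted and turned to -0.51 with normexp correction. The target gene Id1 read 0.71, 0.09, 0.20 and 0.45 in controls and -6.15, -2.08, -0.30 and -1.51 in PNFLX, with a difference of -2.88 (SE 1.08, limma adjusted p = 0.324). Its spot lies in row 188, which also holds the brighter Col1a1 spot and the Lum spot. Unlike those, Id1 was lowest on PNFLX 1.

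In the retinoic acid pathway around Aldh1a2, 6 of 13 genes were higher and 7 lower, with a median of -0.18 and 1 at an unadjusted p under 0.05. The retinoic acid hydroxylase Cyp26a1 had a difference of -0.77 (SE 0.31, limma adjusted p = 0.348) and Cyp26b1 one of -1.73 (SE 0.89, limma adjusted p = 0.465). The receptor Rxrb had a difference of -0.58 (SE 0.31, limma adjusted p = 0.472).

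Markers of meningeal and other fibroblasts that are not among the 10 genes were higher in 20 of 25 cases and lower in 5, with a median of 0.27, and 2 had an unadjusted p under 0.05. With normexp correction 12 were higher and 13 lower, and 15 lay above the median of all genes, against 20 in the main setting. Without PNFLX 1, 13 were higher and 12 lower, with a median of 0.02. Of the 25, 13 were highest on that array, against 13.3% of all genes. The summed level of these markers ranged from 48.0 to 64.9 in control and from 47.6 to 110.3 in PNFLX, the highest being PNFLX 1. Their mean deviation was 0.59 on PNFLX 1 and lowest on PNFLX 4 (-0.35), where that of the matrix genes was 0.28. Serping1, a complement inhibitor, had a difference of 0.67 (SE 0.25, limma adjusted p = 0.313), and 0.46 without PNFLX 1. Thy1, a surface glycoprotein that neurons also carry, had a difference of 0.50 (SE 0.22, limma adjusted p = 0.387), and 0.59 without PNFLX 1, being highest on PNFLX 3. Serping1 and Thy1 were those with an unadjusted p under 0.05. The calcium-binding S100a6 had a difference of 0.38 (SE 0.19, limma adjusted p = 0.442), 0.22 without PNFLX 1 and -0.0093 with normexp correction. Of the defining meningeal regulators, Tbx18 did not pass the filter on dim probes, and Foxc1 and Foxd1 were not analysed here. The part of these markers in the values of the matrix genes was not tested.

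**Figure D5:**
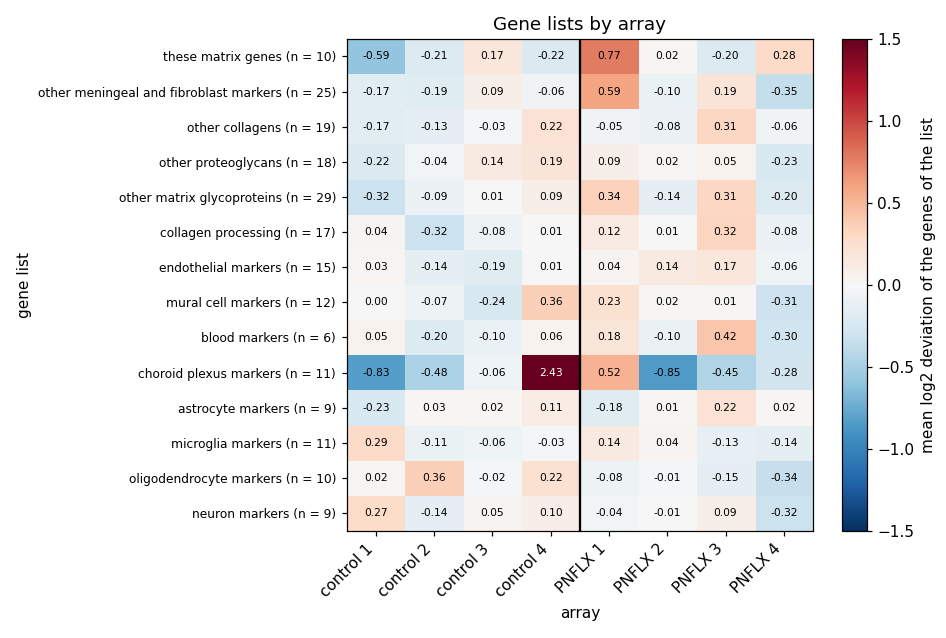
Mean log2 deviation of the genes of a list from their own means (colour and printed value) for the 10 matrix genes and 13 lists (rows, with the number of genes measured) on the 8 arrays (columns). The matrix genes reach 0.77 and the other meningeal and fibroblast markers 0.59 on PNFLX 1. These 2 sets part on PNFLX 3 (-0.20 and 0.19) and on PNFLX 4 (0.28 and -0.35). The choroid plexus markers reach 2.43 on control 4, past the end of the colour scale.

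Markers of other cell types were read on the same arrays. Choroid plexus markers were highest on control 4 for 9 of 11 genes, with a summed level of 47.8 there, against 4.28 to 5.30 in the other controls and 4.11 to 6.43 in PNFLX. The 6.43 was that of PNFLX 1, the next highest array, with a mean deviation of 0.52. On control 4 the matrix genes had a mean deviation of -0.22, and 4 of the 10 were at their lowest. Among those 4 was Bgn by its spot in row 175, while its spot in row 165 was lowest on control 2. The mean deviation of the matrix genes was lowest on control 1 (-0.59). Blood markers had a summed level of 1.17 to 1.39 in control and 1.03 to 2.45 in PNFLX, highest on PNFLX 1. Their mean deviation was instead highest on PNFLX 3 (0.42), with 0.18 on PNFLX 1. A summed level adds linear signals, so the brighter genes of a list weigh more in it. Endothelial markers gave 19.1 to 24.5 in control and 22.1 to 23.8 in PNFLX, and mural cell markers 13.5 to 24.6 and 12.4 to 14.0. The 24.6 was that of control 4, where the bright mural gene Notch3 had its highest log2 level, 3.72. By gene, 7 of 15 endothelial markers were higher in PNFLX and 8 lower, with a median log2 difference of -0.03. The median of the mural markers was 0.03. The part of these cell types in the values of the matrix genes was not tested.

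None of the choroid plexus, blood, mural, astrocyte, microglia, oligodendrocyte and neuron markers passed in limma, and 2 blood and 2 mural genes had an unadjusted p under 0.05. The mural genes were Mylk, a myosin kinase of smooth muscle, at -0.62 (SE 0.13, limma adjusted p = 0.0986), and the receptor Notch3 at -1.83 (SE 0.45, limma adjusted p = 0.139). Of the 12 mural markers measured, 7 were higher and 5 lower, with a median of 0.03, and 9 lay above the median of all genes. Without PNFLX 1, 5 of them were higher and 7 lower, with a median of -0.11. Oligodendrocyte markers were lower in 10 of 10 cases with a median of -0.28. Lower were 3 of 10 with normexp correction, 4 without scaling and 6 with row and column medians subtracted. Above the median of all genes were 0 of 10 in the main setting and without scaling, 9 with normexp correction and 4 with that subtraction. Among these markers were the myelin genes Mag (-0.33, SE 0.15, limma adjusted p = 0.411) and Mog (-0.28, SE 0.14, limma adjusted p = 0.446).

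Promoter sequence from RefSeq on the GRCr8 assembly was matched for 5 of the 10 genes: Col1a2, Col5a2, Lum, Fmod and Aldh1a2. In the 250 bases before the annotated start, searched on both strands, CCAAT was found in 4 of the 5, all but Col5a2, and in 34.0% of 33469 promoters of the table. TATAAA was found in Col1a2 alone, 170 bases before the annotated start, and in 12.9% of the table. GGGCGG was found in Fmod alone, and in 30.5% of the table. These are matches of letters and were not tested against the array values.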

How the data were processed

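Total RNA of 8 whole hippocampi samples was labelled with Cy3 and hybridised to 1-colour Agilent arrays. The deposited spot intensity values were made with Feature Extraction 10.5.1.1, per the submitters' processing notes and the file headers. Here, log2 of the processed signal was taken relative to the 75th percentile of each array, 521 outlier-flagged spots were left out, and probes well above background on at least 4 arrays were kept. The brightest probe stood for a gene. The groups were tested against each other in R 4.3.3 using limma 3.58.1 (lmFit, eBayes, Benjamini-Hochberg adjustment over 9440 genes and unnamed probes, threshold 0.05), and the procedure was tested on simulated data. Groups and replicate numbers came from the source names. Of the 15207 probes, 14323 matched a RefSeq gene name.

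The authors' deposited log2 table gave the same values centred on each probe's median, within 0.00241, with column medians of 0.06, -0.05, 0.04 and 0.04 in controls and -0.04, -0.07, 0.10 and -0.13 in PNFLX.

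Genes named were all 10 matrix genes, list genes past the threshold or otherwise up to 3 of smallest p, and the 8 most and 3 least like the matrix genes' mean. Omd, Ogn and Prelp were added as relatives. Members and lists were chosen with earlier results of these data known. Scaling, background, filters, probe choice, spot position, a replicate block and single arrays left out were varied in 22 alternative settings.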

Additional observations from a re-analysis of the deposited data

Results flagged for a closer look

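In 10 of 128 groups of 4 values, 1 sample stood far from the other 3 by Dixon's criterion, which chance meets in about 1 of 20 groups. Of the matrix genes, the brighter Col5a2 spot read -0.015 on PNFLX 4 where the nearest other PNFLX value was -0.74. The Bgn spot of row 175 read 1.95 on control 4, the nearest control being 2.66, while the spot of the same sequence in row 165 read 2.66 on that array. The low Bgn value of control 4 was thus not repeated at the second spot.

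Of other genes, the collagen gene Col4a1 read -0.079 on control 1, the water channel gene Aqp4 -5.51 on control 1, and Id3 3.00 on control 1. Cyp26b1 read 2.03 and the choroid plexus marker Steap1 -2.07 on control 4, and the gap junction gene Gjb6 read 1.98 on control 2. In PNFLX, Chad read -4.56 on PNFLX 3 and Rxrb -2.47 on PNFLX 4.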

How the results depend on the processing

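The count of matrix genes with a higher mean in PNFLX was 9 and ranged from 6 to 10 over 22 alternatives. Col1a2, Col3a1 and Fn1 were above 0 in all of them, at 0.68 to 1.68, 0.44 to 1.09 and 0.27 to 1.08. The 10 genes were chosen because most were higher in PNFLX, and the alternatives reuse the same arrays, so this adds no support. The dimmer Col1a2 spot gave 0.027, -0.20 without PNFLX 1 and -0.088 with row and column medians subtracted. Ranges of the other matrix genes included 0, such as -0.06 to 0.86 for Bgn, -0.87 to 0.41 for Col5a2 and -0.78 to 0.73 for Aldh1a2. With row and column medians subtracted another spot was the brighter one for Bgn and Fmod. Bgn was then read in row 165 (0.05), where row 175 gave 0.63. Fmod was read in row 49 (-0.57), where row 132 gave -0.14. Without scaling all 10 were above 0, where the median of all genes was 0.26, and 9 lay above that median. With normexp background correction 7 were above 0, where the median was -0.39, and 8 lay above it.

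Of all genes, 48 passed, 27 higher and 21 lower. The count was 26 without the filter, 25 with probes well above background on all arrays, 12 with row and column medians subtracted, 11 with that and PNFLX 1 left out (a setting added after the data were seen), and 14 to 60 with single arrays left out. It was 108 without scaling (92 higher, 16 lower), 73 with quantile normalization (33 higher, 40 lower) and 27 with normexp (7 higher, 20 lower). Without the first and last 5 rows of spots limma called 0, with 1092 at an unadjusted p under 0.05. Deviations from the group means had correlations of 0.0049 to 0.090 between samples of the same replicate number. Between unlike numbers they were -0.085 to 0.044. These values are small, and whether the numbers pair the samples was not tested further. The replicate block gave 5. Of list genes, 1 passed, 0 to 1 with single arrays left out, and 2 with the mean of probes (Emcn and Lamc1). None passed, or 0, under no filter, normexp, the replicate block, both row and column settings, the edge rows left out, or the stricter filter, where 14 to 25 had an unadjusted p under 0.05.

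Of the values of named list genes under the alternatives, 1026 kept direction and call, 12 lost a call (all Emcn) and 28 turned sign. With normexp these were Adamts5 (-0.76), Ahsp (-0.13), Alas2 (-0.015), Aqp4 (-0.33), Col9a2 (-0.14), Ctss (-0.028), Efemp1 (-0.81), Gja1 (0.64), Id3 (0.24), Lox (-0.78), Loxl2 (-0.33), Ltbp1 (-0.26), Mag (0.31), Map2 (0.071), Mog (0.090), Plat (-0.49), S100a6 (-0.0093) and Smad2 (-0.51). Without scaling they were Cd68 (0.040), Gad2 (0.0077), Mog (0.014) and Slc39a4 (0.10). With row and column medians subtracted Id3 gave 0.10 and Mog 0.020, and Id3 0.25 without PNFLX 1 as well. The mean of probes gave -0.39 for Rgs5 and -0.039 for S100a6. Averaging spots of the same sequence, also a setting added after the data were seen, gave -0.39 for Rgs5. The cause was not tested.

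The arrays number 4 a group, and Aldh1a2 and Lum are the matrix genes nearest background.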
